A study of Mus musculus with 6 samples.

Results

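The genes described here are the nuclear receptors other than the liver X receptors (LXRs) and PPAR-γ. The list was made by family name, with earlier results of these data known. Of 41 listed genes, 40 had a probe set paired with that gene alone, among 19938 genes that had one, and each was read through its brightest such probe set. *Nr2e3* was not analysed here.

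Most nuclear receptors are transcription factors that bind DNA through paired zinc fingers. Many are switched by a small lipid-soluble ligand such as a steroid, retinoic acid, thyroid hormone or the active form of vitamin D. Receptors for the last 3 kinds of ligand work as pairs with a retinoid X receptor (RXR), steroid receptors mostly pair with themselves, and the REV-ERB and ROR proteins compete for the same elements in circadian clock genes. In bone, vitamin D, oestrogen, glucocorticoids and retinoids all act on osteoclasts or on the cells that instruct them.

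Each sample was measured on 1 array, the Affymetrix Mouse Gene 1.0 ST. The cells were bone marrow-derived macrophages (BMMs), macrophages grown from mouse marrow with M-CSF that become osteoclasts under RANKL. The 3 rGDF11 samples received recombinant GDF11 (rGDF11), a secreted TGF-β family member, at 100 ng ml−1 for 24 h, in medium that held RANKL at 50 ng ml−1 and M-CSF at 100 ng ml−1. The 3 vehicle samples received vehicle in the same medium with RANKL and M-CSF. The marrow came from the tibiae of 9-week-old mice, and the study used female C57BL animals. No gene was altered in either group. The labels call the samples biological replicates but do not say that each came from its own mouse, so the p-values reflect only how these 6 samples vary, and that variation may be technical. All values are deposited log2 values from the robust multichip average (RMA), and a difference of 1 on this scale is a 2-fold change. The groups were compared by limma's moderated test, and "rose" and "fell" are used for an adjusted p under 0.05 over 23410 probe sets.

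The cells carried the markers of their label. All 8 macrophage markers read above the level used below to mark dim probe sets, although 5 of them were lower with rGDF11, and 5 of 6 osteoclast markers were higher. Among the markers of other cell types, 3 of 5 measured stromal or osteoblast genes (*Alpl*, *Col1a1* and *Col1a2*) were also higher with rGDF11. The log2 of the summed stromal level was 8.99 to 9.24 in rGDF11 samples and 8.51 to 8.67 in vehicle samples. Of the markers of neutrophils, T cells, B cells, red cells, mast cells and endothelium, 4 were higher and 2 were lower of 25 measured. The 4 were *S100a8* (log2 difference 0.71), *Cd5* (0.46), *Pecam1* (0.28) and *Alas2* (0.23). The 2 were the B cell marker *Cd79b* (−1.19) and *Kdr* (−0.50). Over all tested probe sets 7.31% were higher and 8.64% lower. Probe sets at background still give some signal, so no marker is at 0. Whether cells of another type had a part in the receptor values was not tested, and in bulk RNA more cells of a type cannot be told apart from more RNA per cell.

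With rGDF11, 2 of the 40 receptor genes rose and 0 fell, while 38 did not pass. The genes that rose were *Vdr*, the vitamin D receptor, and *Nr1d1*, the haem-binding clock repressor REV-ERBα. Over all tested probe sets 16% were called, 7.31% higher and 8.64% lower. The 5.0% called among the receptors lay below that share. Genes marked as dim below were called less often. Among 7367 dim genes 1.63% were higher and 1.34% lower, against 10.9% and 13.7% of the 12571 others. Of the 40 receptors 19 were dim, and of the 21 others 9.52% were higher and 0 lower. *Vdr* is counted among those 21, although its vehicle mean alone lay just under the limit used below. Whether dimness accounts for the low share was not tested, and the low share is not read as a trait of the family. At an unadjusted p under 0.05, 7 receptors were found, against 27.3% of all tested probe sets. At the threshold of the methods, a fold change of 1.5 with an unadjusted p under 0.01, the same 2 genes were higher and 0 were lower, where 5.03% of all probe sets were called, 2.06% higher and 2.96% lower. The 3 rGDF11 arrays and the 3 vehicle arrays did not overlap for 8 receptor genes, 5 higher and 3 lower, or 20.0% of them, against 32.9% of all tested probe sets. The median difference was 0.03 over the 40 receptors and 0.03 over all 19938 genes, and the median size of the difference, whatever its sign, was 0.088 over the receptors and 0.116 over all genes. For the 38 receptors that did not pass, the differences ran from −0.32 to 0.27, and every 95% interval lay inside a 1.5-fold change in either direction. The widest reach downwards was that of *Rarb*, to −0.58, and the widest upwards that of *Esrrb*, to 0.53. Both of these genes are among 19 receptors marked as dim below, all of which did not pass. Near background the intervals describe the probe set values and do not bound a change in the RNA.

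**Figure D1:**
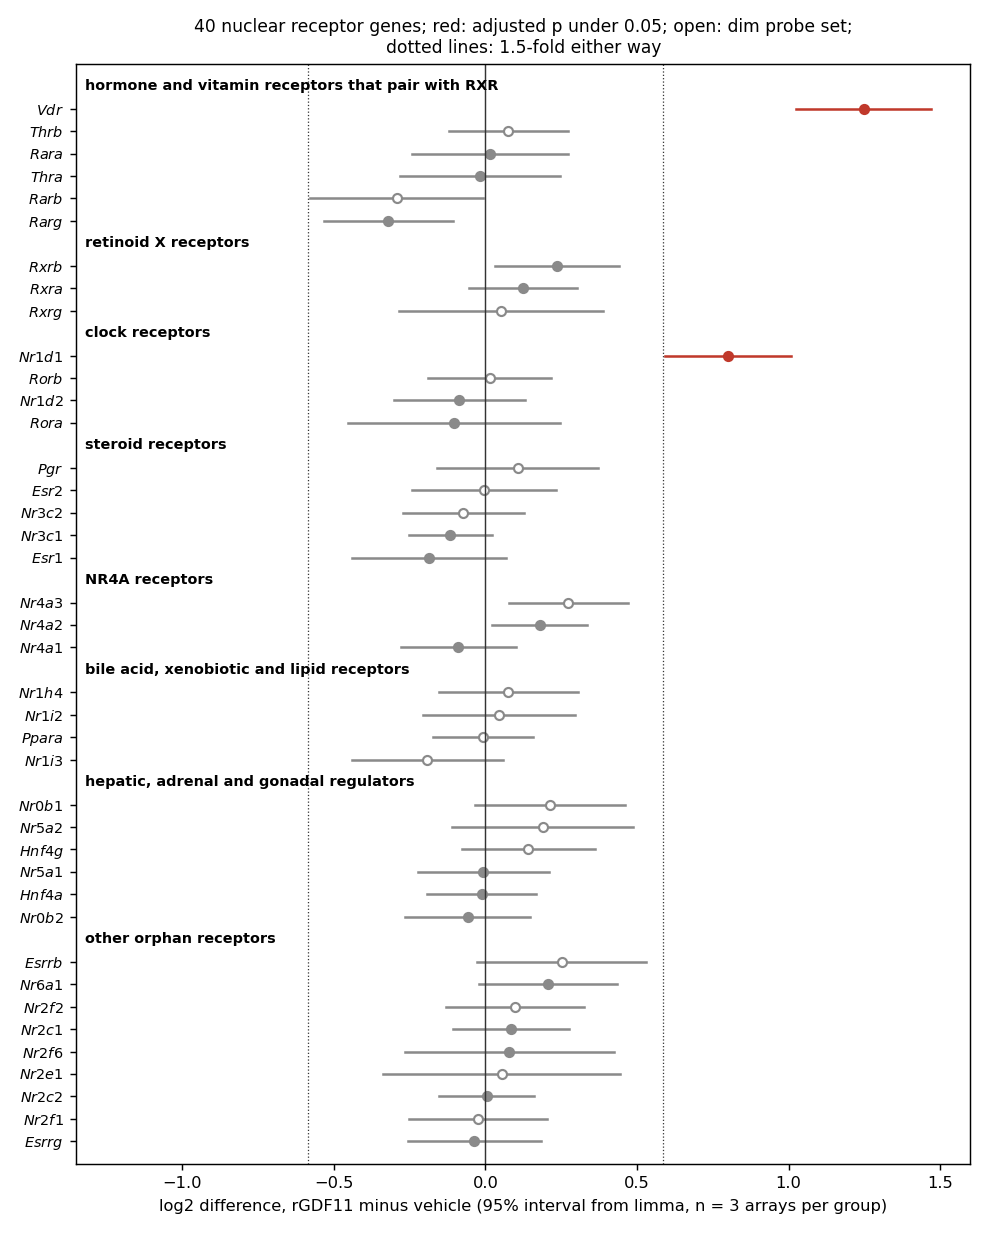
Log2 difference, rGDF11 minus vehicle (horizontal axis), of 40 nuclear receptor genes grouped by role, with 95% intervals from limma on 3 arrays per group. Red marks an adjusted p under 0.05, open points are dim probe sets and dotted lines mark a 1.5-fold change, with *Vdr* at 1.25 and *Nr1d1* at 0.80 to the right and the intervals of all 38 others between the dotted lines.

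Nuclear receptors are used by different tissues, and many of these probe sets gave little signal in BMMs. The arrays hold no detection calls, so each receptor was set beside the probe sets of 1027 olfactory receptor genes, which macrophages are not known to use. A receptor is called dim here where its mean over the 6 arrays was at or under 5.34, the 95th percentile of those genes. By that measure 19 of the 40 receptors were dim and 21 were not. A mark of this kind describes signal near background and does not order genes by expression, since probe sets differ in brightness. A gene can leave the dim set by rising in 1 group, as *Vdr* did, whose vehicle mean alone lies just under the limit. Calls are therefore not compared between dim receptors and the others. The 19 dim receptors had log2 differences from −0.29 to 0.27.

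**Figure D2:**
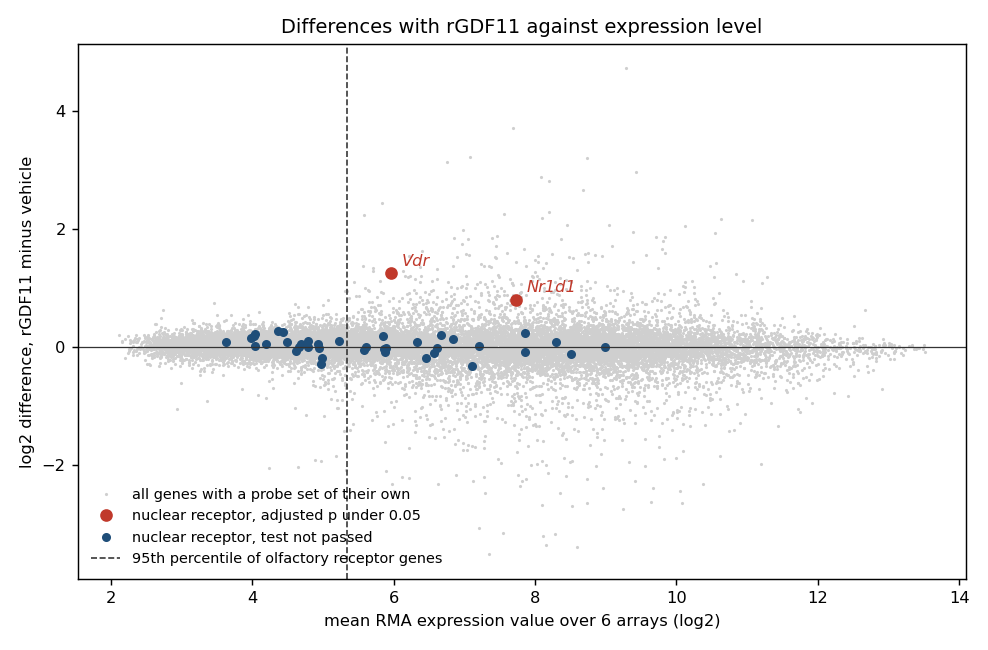
Mean RMA value over 6 arrays (log2, horizontal axis) and log2 difference, rGDF11 minus vehicle (vertical axis), of 19938 genes (grey) and of 40 nuclear receptors (blue, or red where the adjusted p was under 0.05). The dashed line at 5.34 is the 95th percentile of olfactory receptor genes, 19 receptors lie at or left of it, and *Vdr* at 1.25 and *Nr1d1* at 0.80 are in red.

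The promoters of the 2 genes that rose are shown with that of *Nr1d2*, the close relative of *Nr1d1* that did not pass. The sequences are the 250 bases before the transcription start given by RefSeq in GRCm38.p6, each read 5′ to 3′ on the minus strand of the genome, where all 3 genes lie. Capitals mark every match, on both strands, to the clock E-box (CACGTG), the nuclear receptor half-site (AGGTCA), the AP-1 site (TGANTCA), the Smad core (CAGAC), the D-box (TTATGTAA) or the Sp1 site (GGGCGG). No match overlapped another.
Vdr promoter (chr15:97908297-97908546): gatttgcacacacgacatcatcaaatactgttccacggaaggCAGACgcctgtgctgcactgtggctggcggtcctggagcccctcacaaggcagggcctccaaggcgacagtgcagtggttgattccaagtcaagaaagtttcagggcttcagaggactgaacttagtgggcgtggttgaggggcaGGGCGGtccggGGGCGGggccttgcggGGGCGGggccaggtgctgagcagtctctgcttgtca
Nr1d1 promoter (chr11:98775378-98775627): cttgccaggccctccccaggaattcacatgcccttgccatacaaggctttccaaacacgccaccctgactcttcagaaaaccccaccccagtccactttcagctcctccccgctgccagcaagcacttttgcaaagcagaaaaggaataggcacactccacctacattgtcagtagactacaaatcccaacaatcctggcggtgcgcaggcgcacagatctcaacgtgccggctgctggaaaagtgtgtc
Nr1d2 promoter (chr14:18239107-18239356): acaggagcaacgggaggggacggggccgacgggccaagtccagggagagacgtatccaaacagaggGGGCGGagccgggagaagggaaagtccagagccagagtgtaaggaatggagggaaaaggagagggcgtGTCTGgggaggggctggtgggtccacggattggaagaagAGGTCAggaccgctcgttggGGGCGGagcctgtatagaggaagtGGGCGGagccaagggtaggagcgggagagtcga
The *Vdr* window held 1 Smad core and 3 Sp1 sites, and the *Nr1d2* window 1 half-site, 1 Smad core and 3 Sp1 sites. None of the 6 motifs was found in the *Nr1d1* window, which says only that these letters are not in these 250 bases. Among 32851 promoter windows of the same length, 42.2% hold a Smad core, 32.7% an Sp1 site, 14% a half-site, 6.75% an AP-1 site, 6.02% an E-box and 0.819% a D-box. Counted by gene, 17 of the 36 receptor genes with a window held a Smad core (47.2%, against 45.8% of 27025 genes) and 20 held an Sp1 site (55.6%, against 35.4%). A match describes the sequence and not a bound factor.

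*Vdr* moved furthest of the 40. Its product binds calcitriol, pairs with RXR and is best known for calcium balance and for driving RANKL in osteoblasts. *Vdr* (probe set 10432032) read 6.46, 6.77 and 6.52 in rGDF11 samples and 5.32, 5.26 and 5.44 in vehicle samples. Every rGDF11 array lay about 1 unit or more above every vehicle array, and 2 of the 3 vehicle arrays were at or under the level that marks dim probe sets. The mean was 6.58 ± 0.16 in rGDF11 samples and 5.34 ± 0.09 in vehicle samples (SD, n = 3 arrays per group), a 2.37-fold rise (log2 difference 1.25, standard error 0.10, limma adjusted p = 0.000114). The exact permutation test over arrays gave a two-sided p of 0.1 for *Vdr*, the smallest that 3 against 3 allow. It gave the same value for each of the 8 receptors whose groups did not overlap, so it does not set *Vdr* apart. With vehicle values this close to background, the size of the fold is less certain than its direction. The call held under all 13 alternatives in which *Vdr* was tested, with log2 differences of 1.15 to 1.31.

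*Cyp27b1*, the enzyme that makes calcitriol, was dim and read 4.42 ± 0.08 in rGDF11 samples and 4.40 ± 0.14 in vehicle samples (log2 difference 0.03, limma adjusted p = 0.884). *Cyp27a1*, which can act on vitamin D upstream of it and also makes oxysterols, had a log2 difference of −0.58 (limma adjusted p = 0.00714), and its call was lost by the methods' t-test (adjusted p = 0.0602). Among 6 measured targets of vitamin D, 3 of them dim, 1 fell, 0 rose and 5 did not pass, or 16.7% called against 16% of all tested probe sets. *Cyp24a1*, the calcitriol-degrading enzyme that serves as the standard target, was not analysed here. That which fell was *Cd14*, the lipopolysaccharide co-receptor and a vitamin D target in human monocytes, which read 10.24, 10.23 and 10.15 in rGDF11 samples and 11.30, 11.26 and 11.23 in vehicle samples (log2 difference −1.06, limma adjusted p = 3.44e-05). *Cd14* is also one of the macrophage markers that were lower. *Camp*, the cathelicidin gene that vitamin D induces in human but not in mouse macrophages, had a log2 difference of 0.25 and did not pass (limma adjusted p = 0.112).

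*Nr1d1* was the other receptor that rose. Its product represses clock genes and, in mouse macrophages, genes of inflammation and of cell migration. *Nr1d1* (probe set 10390691) read 7.97, 8.13 and 8.29 in rGDF11 samples and 7.27, 7.36 and 7.35 in vehicle samples, so all rGDF11 arrays were above all vehicle arrays. The mean was 8.13 ± 0.16 in rGDF11 samples and 7.33 ± 0.05 in vehicle samples, a 1.74-fold rise (log2 difference 0.80, standard error 0.09, limma adjusted p = 0.000801). The call held under all 14 alternatives, with log2 differences of 0.72 to 0.88.

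*Nr1d2*, which encodes the partly redundant REV-ERBβ, read 7.77, 7.82 and 7.87 in rGDF11 samples and 7.75, 8.09 and 7.88 in vehicle samples. The groups overlapped for *Nr1d2*, with a log2 difference of −0.09 and a 95% interval of −0.30 to 0.13 (limma adjusted p = 0.625). Within an array, the value of *Nr1d1* minus that of *Nr1d2* was 0.20, 0.32 and 0.42 in rGDF11 samples and −0.48, −0.72 and −0.52 in vehicle samples. The groups did not overlap for this value, and their means lay 0.89 apart. The pair was chosen after its values were seen, as were the 2 other pairs given below, so these values are a description with no test. *Rora*, an activator at the elements that REV-ERB proteins block, read 6.17, 6.57 and 6.80 in rGDF11 samples and 6.60, 6.72 and 6.53 in vehicle samples (log2 difference −0.10, 95% interval −0.45 to 0.25, limma adjusted p = 0.729). The rGDF11 arrays of *Rora* spread more widely than the difference itself. *Rorb*, better known in brain and retina, was dim (log2 difference 0.01, limma adjusted p = 0.948).

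**Figure D3:**
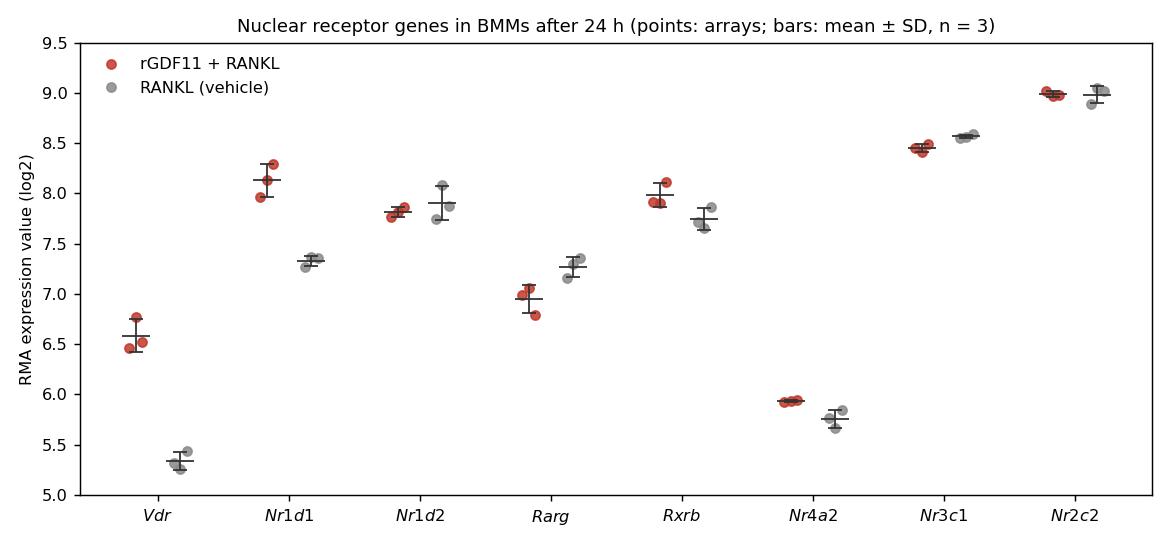
RMA expression values (log2, vertical axis) of 8 nuclear receptor genes in rGDF11 samples (red, left of each pair) and vehicle samples (grey, right), with the mean and SD of 3 arrays. *Vdr* averages 6.58 with rGDF11 and 5.34 with vehicle and *Nr1d1* 8.13 and 7.33, whereas *Nr1d2* and *Nr2c2* overlap between groups.

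The receptor genes next to *Nr1d1* were not called. *Thra*, the thyroid hormone receptor α gene, overlaps *Nr1d1* on chromosome 11 in the RefSeq annotation, and *Rara*, the retinoic acid receptor α gene, is the next member of the family along the same chromosome. *Thra* read 6.79, 6.36 and 6.67 in rGDF11 samples and 6.56, 6.59 and 6.71 in vehicle samples, with overlapping groups (log2 difference −0.02, 95% interval −0.28 to 0.25, limma adjusted p = 0.949). The value of *Nr1d1* minus that of *Thra* on the same array averaged 1.53 ± 0.31 in rGDF11 samples and 0.71 ± 0.07 in vehicle samples, again without overlap. *Rara* had a log2 difference of 0.02 (limma adjusted p = 0.951). On chromosome 14, where their paralogues also neighbour each other, *Rarb* had a log2 difference of −0.29, *Thrb* of 0.08 and *Nr1d2* of −0.09, and none of these 3 passed limma's test.

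Clock genes went both ways. Of 16 measured genes of the circadian clock, 3 rose, 3 fell and 10 did not pass, or 37.5% called against 16% of all tested probe sets. None of the 16 was dim, and among the 12571 genes that were not dim 10.9% were higher and 13.7% lower. *Bhlhe40*, which encodes the repressor DEC1, averaged 9.62 ± 0.09 in rGDF11 samples and 8.07 ± 0.13 in vehicle samples (log2 difference 1.55, limma adjusted p = 3.12e-05). *Csnk1e*, a kinase that marks PER proteins, had a log2 difference of 0.74 (limma adjusted p = 0.000524). *Nfil3*, a repressor of D-box genes whose own gene REV-ERB proteins repress, had a log2 difference of −0.60, with 6.96 ± 0.03 in rGDF11 samples and 7.56 ± 0.16 in vehicle samples (limma adjusted p = 0.00275).

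*Arntl*, which encodes BMAL1 and is the textbook target of REV-ERBα, read 7.17, 7.24 and 7.13 in rGDF11 samples and 7.29, 7.40 and 7.42 in vehicle samples. The groups of *Arntl* did not overlap, but the difference of −0.19 did not pass (limma adjusted p = 0.108), and it passed among brighter probe sets alone (adjusted p = 0.0313). *Clock*, which encodes the partner of BMAL1, had a log2 difference of 0.30 (limma adjusted p = 0.0323). That call was lost without rGDF11 replicate 1 or 2 and without any 1 of the vehicle replicates, at adjusted p = 0.0615 to 0.104. *Dbp*, an output gene of the clock, had a log2 difference of −0.49 (limma adjusted p = 0.0352). The call of *Dbp* was lost without rGDF11 replicate 2 or 3 and without vehicle replicate 2 or 3, at adjusted p = 0.0859 to 0.119. *Cry1*, another gene with REV-ERB elements, had a log2 difference of 0.22 and did not pass (limma adjusted p = 0.166).

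Of 8 measured genes listed as targets of REV-ERB, 2 rose, 3 fell and 3 did not pass, or 62.5% called against 16% of all tested probe sets, with a median difference of −0.14. The list shares *Arntl*, *Clock*, *Nfil3* and *Cry1* with the clock list. Only 1 of the 8 was dim, and among all genes that were not dim 10.9% were higher and 13.7% lower. *Mmp9*, a gelatinase repressed by REV-ERB in mouse macrophages, read 7.25, 7.22 and 7.53 in rGDF11 samples and 7.86, 7.99 and 8.02 in vehicle samples (log2 difference −0.62, limma adjusted p = 0.00376). *Cx3cr1*, the fractalkine receptor gene and another such target, went the other way, with 10.71 ± 0.11 in rGDF11 samples and 9.79 ± 0.08 in vehicle samples (log2 difference 0.92, limma adjusted p = 0.000178). *Ccl2*, a chemokine gene also repressed by REV-ERBα in macrophages, had a log2 difference of −0.33 (limma adjusted p = 0.0374). The call of *Ccl2* was lost without any 1 rGDF11 replicate and without vehicle replicate 1 or 2, at adjusted p = 0.0624 to 0.113.

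The retinoic acid receptors did not pass the test, although *Rarg* came close. *Rarg*, which encodes the γ receptor, read 6.99, 7.06 and 6.79 in rGDF11 samples and 7.16, 7.29 and 7.35 in vehicle samples, so the groups did not overlap. Its log2 difference was −0.32 with a 95% interval of −0.53 to −0.11 (limma adjusted p = 0.0525). The adjusted p fell under 0.05 with a variance trend (0.0260), after quantile normalization (0.0365), among brighter probe sets (0.0172) and without rGDF11 replicate 2 (0.0454), and it ranged up to 0.168 over 14 alternatives. *Rarb* was dim and its groups did not overlap either, with 4.94, 4.61 and 4.90 in rGDF11 samples and 4.97, 5.04 and 5.33 in vehicle samples (log2 difference −0.29, limma adjusted p = 0.171). *Rara* read 7.23, 7.22 and 7.17 in rGDF11 samples and 6.97, 7.18 and 7.43 in vehicle samples, where the rGDF11 values lay inside the vehicle range.

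Genes of retinoid metabolism were mostly not called, with 2 exceptions. Of 15 measured retinoid enzymes and carriers 0 rose, 2 fell and 13 did not pass, or 13.3% called against 16% of all tested probe sets, and 7 of the 15 were dim. *Dhrs9*, a retinol dehydrogenase, read 7.85, 7.94 and 7.75 in rGDF11 samples and 9.15, 9.24 and 9.34 in vehicle samples (log2 difference −1.40, limma adjusted p = 3.29e-05). *Dhrs3*, which turns retinaldehyde back to retinol and is itself induced by retinoic acid, read 10.10, 9.97 and 10.08 in rGDF11 samples and 11.25, 11.09 and 11.22 in vehicle samples (log2 difference −1.14, limma adjusted p = 5.10e-05). For both enzymes the rGDF11 arrays lay far below the vehicle arrays, with no overlap. Of 9 measured retinoic acid receptor targets, 3 of them dim, 1 rose, 1 fell and 7 did not pass. That is 22.2% called against that same 16%, while among all genes that were not dim 10.9% were higher and 13.7% lower. The one that fell was *Dhrs3*, and the one that rose was *Nrip1*, the corepressor RIP140 (log2 difference 0.51, limma adjusted p = 0.00113). *Cyp26b1*, which degrades retinoic acid, and *Tgm2*, a transglutaminase, did not pass (log2 differences 0.10 and 0.16, limma adjusted p = 0.474 and 0.242).

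RXR is the shared partner of the vitamin D, retinoic acid and thyroid hormone receptors. *Rxrb* read 7.92, 7.91 and 8.12 in rGDF11 samples and 7.72, 7.65 and 7.87 in vehicle samples, a small separation with no overlap (log2 difference 0.24, 95% interval 0.03 to 0.44, limma adjusted p = 0.124). It passed among brighter probe sets alone (adjusted p = 0.0467). *Rxra* read 6.91, 7.003 and 6.78 in rGDF11 samples and 6.71, 6.83 and 6.79 in vehicle samples, with overlapping groups (log2 difference 0.12, 95% interval −0.05 to 0.30, limma adjusted p = 0.362). *Rxrg* was dim (log2 difference 0.05, limma adjusted p = 0.866). The value of *Vdr* minus that of its partner *Rxra* on the same array averaged −0.31 ± 0.11 in rGDF11 samples and −1.44 ± 0.12 in vehicle samples, 1.12 apart and without overlap. Other partners of RXR outside the 40 genes were called. *Pparg* (log2 difference −0.84, limma adjusted p = 0.000385) and the LXR gene *Nr1h3* (log2 difference −0.45, limma adjusted p = 0.00904, lost by the methods' t-test at 0.0525) were lower with rGDF11. *Ppard* was higher (log2 difference 0.37, limma adjusted p = 0.0114, and 0.0506 without rGDF11 replicate 1).

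No steroid receptor gene was called. *Nr3c1*, the glucocorticoid receptor gene, read 8.45, 8.41 and 8.49 in rGDF11 samples and 8.55, 8.56 and 8.59 in vehicle samples. The groups of *Nr3c1* did not overlap, but the difference was small, −0.12 with a 95% interval of −0.25 to 0.02 (limma adjusted p = 0.259). *Esr1*, the oestrogen receptor α gene, read 6.55, 6.28 and 6.29 in rGDF11 samples and 6.38, 6.71 and 6.59 in vehicle samples, with overlap (log2 difference −0.19, 95% interval −0.44 to 0.07, limma adjusted p = 0.334). *Esr2*, *Pgr* and the mineralocorticoid receptor gene *Nr3c2* were dim, with log2 differences of −0.01, 0.11 and −0.07.

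Genes known to answer to glucocorticoids split in direction while *Nr3c1* did not pass. Of 17 measured targets, 4 rose, 3 fell and 10 did not pass, or 41.2% called against 16% of all tested probe sets, with a median difference of −0.01. Only 1 of the 17 was dim, and among all genes that were not dim 10.9% were higher and 13.7% lower. *Fkbp5*, a co-chaperone of the receptor, read 8.96, 9.16 and 9.04 in rGDF11 samples and 8.19, 8.27 and 8.38 in vehicle samples (log2 difference 0.78, limma adjusted p = 0.000486). *Tsc22d3*, the anti-inflammatory leucine zipper gene GILZ, went the other way, with 7.38, 7.22 and 7.13 in rGDF11 samples and 7.75, 7.96 and 7.86 in vehicle samples (log2 difference −0.61, limma adjusted p = 0.00266). The kinase gene *Sgk1* (log2 difference 0.70), the feedback inhibitor *Errfi1* (log2 difference 0.72) and the interleukin-1 decoy receptor gene *Il1r2* (log2 difference 0.72) were the other 3 that rose (limma adjusted p = 0.000191, 0.000363 and 0.00113). All of these genes answer to other signals as well.

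The NR4A receptors are orphan factors rapidly induced by many stimuli, and none was called at 24 h. *Nr4a2*, known as Nurr1, read 5.92, 5.94 and 5.95 in rGDF11 samples and 5.76, 5.67 and 5.84 in vehicle samples, a narrow separation (log2 difference 0.18, 95% interval 0.02 to 0.33, limma adjusted p = 0.127). *Nr4a3* was dim and read 4.60, 4.34 and 4.56 in rGDF11 samples and 4.18, 4.21 and 4.29 in vehicle samples (log2 difference 0.27, 95% interval 0.08 to 0.47, limma adjusted p = 0.0696). Without rGDF11 replicate 2, its lowest rGDF11 array, *Nr4a3* passed at a log2 difference of 0.35 (adjusted p = 0.0224). *Nr4a1*, known as Nur77, overlapped between groups, with 5.91, 5.79 and 5.78 in rGDF11 samples and 6.05, 5.80 and 5.91 in vehicle samples (log2 difference −0.09, 95% interval −0.28 to 0.10, limma adjusted p = 0.551).

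Among the orphan receptors, *Nr2c2* and *Nr2c1*, which encode TR4 and TR2, were not dim and had overlapping groups. *Nr2c2* read 9.02, 8.97 and 8.97 in rGDF11 samples and 8.89, 9.05 and 9.02 in vehicle samples (log2 difference 0.00, 95% interval −0.15 to 0.16, limma adjusted p = 0.979). *Nr2c1* read 8.33, 8.44 and 8.26 in rGDF11 samples and 8.19, 8.39 and 8.20 in vehicle samples (log2 difference 0.09, 95% interval −0.11 to 0.28, limma adjusted p = 0.580). *Nr6a1*, the germ cell nuclear factor gene, read 6.84, 6.63 and 6.86 in rGDF11 samples and 6.55, 6.44 and 6.72 in vehicle samples (log2 difference 0.21, limma adjusted p = 0.224). The groups overlapped for *Nr6a1* and for *Nr2f6*, a COUP-TF relative. *Nr2f6* read 6.48, 6.16 and 6.48 in rGDF11 samples and 6.20, 6.09 and 6.60 in vehicle samples (log2 difference 0.08, limma adjusted p = 0.796). The other 5 measured orphan receptors, *Nr2e1*, *Nr2f1*, *Nr2f2*, *Esrrb* and *Esrrg*, had log2 differences of −0.04 to 0.25, and all but *Esrrg* were dim. *Esrrg*, an oestrogen-related receptor gene, read 5.998, 5.74 and 5.81 in rGDF11 samples and 5.99, 5.74 and 5.93 in vehicle samples, with overlap (log2 difference −0.04, limma adjusted p = 0.86). *Esrrb* read 4.74, 4.29 and 4.66 in rGDF11 samples and 4.40, 4.32 and 4.22 in vehicle samples (limma adjusted p = 0.233), and it passed without rGDF11 replicate 2 (log2 difference 0.39, adjusted p = 0.0239).

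Receptors known mainly from liver, gut, adrenal gland and gonad were not called. All 4 receptors for bile acids, foreign compounds and fatty acids, *Nr1h4* (FXR), *Nr1i2* (PXR), *Nr1i3* (CAR) and *Ppara*, were dim, with single-array values of 3.48 to 5.26 and log2 differences of −0.19 to 0.08. Of the 6 hepatic, adrenal and gonadal regulators *Hnf4a*, *Hnf4g*, *Nr5a1*, *Nr5a2*, *Nr0b1* and *Nr0b2*, 3 were dim and 0 were called, with log2 differences of −0.06 to 0.21 (limma lowest adjusted p = 0.251). *Hnf4a*, a hepatocyte regulator, read 5.90, 5.82 and 5.95 in rGDF11 samples and 6.03, 5.86 and 5.82 in vehicle samples. *Nr0b2*, the corepressor-like receptor SHP, read 5.66, 5.63 and 5.36 in rGDF11 samples and 5.58, 5.63 and 5.61 in vehicle samples. *Nr5a1*, the steroidogenic factor gene, read 5.61, 5.55 and 5.67 in rGDF11 samples and 5.81, 5.49 and 5.55 in vehicle samples. The groups overlapped for each of these 3 genes, none of which was dim. Genes listed as targets of PPAR-α, which other PPARs also control, were read beside *Ppara*. Of 19 measured, 0 rose, 6 fell and 13 did not pass, or 31.6% called against 16% of all tested probe sets and 8.64% lower. The median difference was −0.08. Of the 19, 7 were dim, and among all genes that were not dim 10.9% were higher and 13.7% lower. *Plin2*, which coats lipid droplets, read 11.18, 11.21 and 11.18 in rGDF11 samples and 12.22, 12.25 and 12.26 in vehicle samples (log2 difference −1.05, limma adjusted p = 2.79e-05). *Cpt1a*, the entry enzyme of mitochondrial fatty acid oxidation, had a log2 difference of −0.67 and the dehydrogenase *Acadl* one of −0.61 (limma adjusted p = 0.000421 and 0.000754). *Ehhadh*, a peroxisomal enzyme of fatty acid oxidation, was dim and had a log2 difference of −0.62 (limma adjusted p = 0.0158). The call of *Ehhadh* was lost without rGDF11 replicate 1 (adjusted p = 0.0555) and by the methods' t-test (0.103). *Pparg*, whose targets overlap with this list, was lower on the same arrays, and its part in these values was not tested.

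Coregulators are the proteins that receptors recruit to act on a gene. Of 16 measured coactivator genes, 5 rose, 4 fell and 7 did not pass, or 56.2% called, beside 5% of the receptors and 16.6% of all 19938 genes. Only 1 of the 16 was dim, against 19 of the 40 receptors, and no test of the difference was made. Among all genes that were not dim 10.9% were higher and 13.7% lower. *Ppargc1b*, a partner of several orphan receptors, read 7.46, 7.20 and 7.53 in rGDF11 samples and 6.38, 6.26 and 6.57 in vehicle samples (log2 difference 0.99, limma adjusted p = 0.000812). The acetyltransferase gene *Crebbp* was higher by 0.54 (limma adjusted p = 0.000802). *Ncoa4*, a receptor coactivator that also delivers ferritin to lysosomes, read 10.22, 10.17 and 10.17 in rGDF11 samples and 10.79, 10.88 and 10.80 in vehicle samples (log2 difference −0.63, limma adjusted p = 0.000353). *Ncoa7* was lower too (log2 difference −0.42, limma adjusted p = 0.00402). Of 9 measured corepressor genes, 2 rose, 0 fell and 7 did not pass, or 22.2% called against 16% of all tested probe sets. None of the 9 was dim. *Nrip1* read 8.03, 8.01 and 7.96 in rGDF11 samples and 7.45, 7.47 and 7.55 in vehicle samples, clear of each other. *Lcor*, the ligand-dependent corepressor gene, had a log2 difference of 0.26 (limma adjusted p = 0.0309). The call of *Lcor* was lost without any 1 rGDF11 replicate and without vehicle replicate 1 or 3, at adjusted p = 0.0681 to 0.0981.

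**Figure D4:**
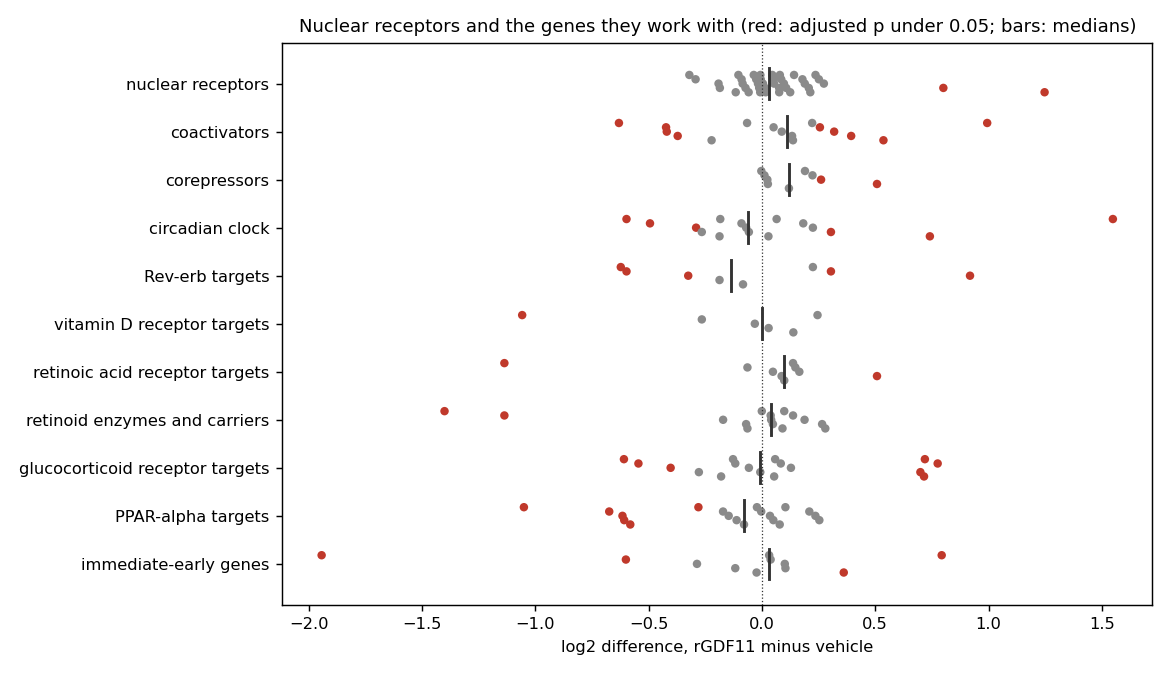
Log2 difference, rGDF11 minus vehicle (horizontal axis), of the 40 nuclear receptors and of 10 lists of genes they work with, 1 point per gene from the 6 arrays, with an adjusted p under 0.05 in red and medians as bars. The receptors cluster near a median of 0.03 with 2 red points to the right, while coactivators, clock genes and glucocorticoid targets hold red points on both sides.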

How the data were processed

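RNA of 6 samples was hybridised to 1 array each. The authors deposited 1 log2 value per probe set after robust multichip average normalization, for which the labels name Transcriptome Analysis Console. The sources used here give no annotation release and no hybridisation batch. Arrays carry no read depth, and 3 per group limit the precision. Of 35556 probe sets, 23410 had at least 1 gene symbol in the platform annotation and were tested, and genes were named from the 21789 with 1 symbol. Groups were compared by limma 3.58.1 (R 4.3.3) with lmFit and eBayes, without a trend, as a two-sided test adjusted by Benjamini-Hochberg over all 23410, after a test of the fit on simulated data. Array medians were 6.11 to 6.18. Across probe sets, arrays correlated at 0.997 to 0.998 within a group and 0.989 to 0.991 between groups. RefSeq promoter windows were found for 36 of 40 genes.

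Members, roles, lists and tests were chosen with earlier results of these data known. Any receptor could be named, with every array given where a result turned on it. From each list up to 4 called genes of largest difference and up to 3 textbook genes were named. Alternatives changed the rows tested, the filter on dim rows, the normalization, the variance model, the test (the study's t-test), the blocking by replicate number, the call rule and, 1 at a time, the arrays used.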

Additional observations from a re-analysis of the deposited data

How the results depend on the processing

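*Vdr* and *Nr1d1* were the 2 receptors higher in all alternatives that tested them. With only probe sets above the median level, *Vdr* was not tested and the 2 higher receptors were *Nr1d1* and *Rxrb*. The count higher was 2 to 4 when 1 array was left out, the 4 without rGDF11 replicate 2, which added *Nr4a3* and *Esrrb*. The count lower was 0 to 1 when 1 array was left out, and 1 with probe sets above the median level, with quantile normalization and with a variance trend, the gene being *Rarg* each time. Over all tested probe sets, 1712 were higher, 1129 to 1357 with 1 array left out, and 483 were higher and 694 lower at the methods' fold threshold. The cause of these changes was not tested.

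With the replicate number as a block, 2 receptors were higher and 0 lower, and 1676 probe sets were higher and 1943 lower. Deviations of same-numbered arrays correlated at 0.0635, 0.335 and −0.00083 across probe sets, so the numbers were not taken to pair the samples. *Camp* passed under the block (adjusted p = 0.0478) and *Dbp* did not (0.0714). *Clock* was not called with all rows tested (0.0705), centred arrays (0.0682) or the t-test (0.0840), nor *Dbp* with all rows (0.0830) or the t-test (0.153). With all rows tested *Ccl2* (0.0812), *Lcor* (0.0639) and *Junb* (0.0707) were lost, as were *Ccl2* after quantile normalization (0.0540), *Lcor* with centred arrays (0.0801), and *Ccl2* (0.111) and *Junb* (0.107) by the t-test. Each receptor was read through 1 probe set, and a mean over several was not tried.

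Small differences changed sign. After quantile normalization they were −0.026 for *Rorb*, 0.00045 for *Thra* and −0.0065 for *Cyp27b1*, and with arrays centred on their median −0.011 for *Nr2c2* and −0.0011 for *Rorb*. With 1 array left out, the log2 difference crossed 0 for *Cyp27b1* (−0.054 to 0.078), *Esr2* (−0.084 to 0.087), *Esrrg* (−0.11 to 0.019), *Hnf4a* (−0.052 to 0.050), *Nr0b2* (−0.11 to 0.036), *Nr1d2* (−0.16 to 0.0054), *Nr1h4* (−0.019 to 0.17), *Nr1i2* (−0.020 to 0.16), *Nr2c2* (−0.045 to 0.038), *Nr2e1* (−0.071 to 0.22) and *Nr2f1* (−0.11 to 0.032). It also did so for *Nr2f6* (−0.026 to 0.23), *Nr3c2* (−0.12 to 0.00011), *Nr5a1* (−0.071 to 0.089), *Pgr* (−0.0097 to 0.19), *Ppara* (−0.047 to 0.038), *Rara* (−0.093 to 0.13), *Rora* (−0.25 to 0.070), *Rorb* (−0.070 to 0.087), *Rxrg* (−0.060 to 0.18) and *Thra* (−0.11 to 0.11). Of the 40 receptors, 16 kept direction and call in every alternative, 20 changed sign and 4 gained a call in at least 1. Of 43 named other genes, 26 kept both. Of the 40 receptors, 19 were close to background by the mark used here.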

Other observations

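Of 6 measured thyroid hormone receptor targets, 1 fell and 5 did not pass, or 16.7% called against 16% of all tested probe sets. The one that fell was *Me1*, the cytosolic malic enzyme, with a log2 difference of −0.48 (limma adjusted p = 0.00541), while *Klf9*, a target shared with the glucocorticoid receptor, had a log2 difference of −0.13 (limma adjusted p = 0.492). Of 9 genes listed for FXR, PXR and CAR, 7 were dim and 1 was called, or 11.1% against 16% of all tested probe sets. That 1 was *Abcb1a*, the drug efflux pump gene (log2 difference −0.62, limma adjusted p = 0.00582). It was lost by the methods' t-test (adjusted p = 0.0556).

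Of 11 immediate-early genes, which share inducers with the NR4A receptors, 2 rose, 2 fell and 7 did not pass. That is 36.4% called against 16% of all tested probe sets. Only 1 of the 11 was dim, and among all genes that were not dim 10.9% were higher and 13.7% lower. *Fos* had a log2 difference of 0.79 and *Atf3* of −1.94 (limma adjusted p = 0.000371 and 7.89e-06), and *Btg2* had one of −0.60 (limma adjusted p = 0.0027). *Junb* had a log2 difference of 0.36 (limma adjusted p = 0.0305), and its call was lost without any 1 rGDF11 replicate and without vehicle replicate 1, at adjusted p = 0.0571 to 0.0903.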
